A study of Arabidopsis thaliana with 8 samples.

Results

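The P-proteins are the acidic proteins of the ribosomal stalk, and the 10 Arabidopsis loci described here encode the classes P0 (AT3G09200 and AT3G11250), P1 (AT1G01100, AT4G00810 and AT5G47700), P2 (AT2G27720, AT2G27710, AT3G28500 and AT3G44590) and P3 (AT4G25890). All 10 had 1 probe set that the platform annotation assigns to a single gene, out of 13436 such probe sets and 22746 probe sets without controls. The list was drawn up by protein class, with earlier results of these data known, and the P2 copy AT3G28500 was selected on its signal, which had been seen raised in the eif3h mutant. Its genotype differences are therefore given as a description with no test. The other 9 loci were taken whatever their signal, and the 4 further P-protein genes measured on the array are described after them.

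The stalk is a flexible arm on the large ribosomal subunit. P0 binds the ribosomal RNA next to protein uL11 and forms the base, dimers of P1 and P2 attach to P0, and the shared acidic carboxyl-terminal tail of these proteins contacts the translation factors that hydrolyse GTP and stimulates their work on the ribosome. P3 is a class known from plants and resembles P1 and P2. Unlike most ribosomal proteins, P1 and P2 can exchange between ribosomes and a free cytosolic pool, which has been studied mostly in yeast and animal cells. In Arabidopsis each class is encoded by several genes.

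Polysomal (PL) and non-polysomal (NP) RNA was compared between wild-type (WT) seedlings and seedlings of eif3h-1, whose eIF3h protein, a subunit of translation initiation factor eIF3, lacks its carboxyl end because of a T-DNA insertion. Seedlings of both genotypes were 10 days old and had grown under continuous light on agar with sucrose. Their aerial parts were extracted, and each extract was separated on a sucrose gradient into the polysomes, which hold mRNAs carrying several ribosomes, and the lighter NP material. RNA of both fractions from 2 gradients per genotype was hybridised to Affymetrix ATH1 arrays, which gives 4 groups of 2 arrays. Each replicate pooled many seedlings, and the replicates were prepared on different days. The study's reporter lines carried eif3h-1 in the Wassilewskija accession, while the sources used here do not name the accession of the seedlings on the arrays. Only this 1 mutant allele was measured.

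Signals are MAS 5.0 intensities on a linear scale, and the array medians lay between 185.75 and 277, with the highest medians on the eif3h NP arrays. Because every array was scaled to the same trimmed mean, a signal is a share of the RNA on that array, and fewer cells of a type and less RNA per cell cannot be told apart. The probe set for TIF3H1 (AT1G10840), the mutated gene, read 2160.1 and 1732.5 in WT NP, 1277.3 and 1148.7 in WT PL, 1897.3 and 1949.6 in eif3h NP, and 213.4 and 192.4 in eif3h PL. Where its probes lie relative to the insertion is not given, so that these values do not check the genotype labels. Of the markers for green tissue, 3 of 14 could be measured, and their summed signal was 82661.7 to 92947.6 in WT NP, 84197.7 to 86411.8 in WT PL, 36673.3 to 36949.7 in eif3h NP and 55142.8 to 76721 in eif3h PL. The root-enriched PYK10 mRNA was also present, at 1812.6 to 9267.5, and the root-hair gene EXPA7 read 19.6 to 135. In eif3h NP the sum was lower through all 3 markers, with log2 differences of -1.12 for LHCB4.1, -2.74 for LHCB4.2 and -0.80 for RCA (adjusted p = 0.0796 for RCA). In PL it was lower through LHCB4.2 (log2 -1.63, adjusted p = 0.00161), while LHCB4.1 and RCA differed by -0.16 and -0.09 (adjusted p = 0.626 and 0.859). These values accompany every genotype difference below, and their part in those differences was not tested.

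The P0 class forms the base of the stalk, and its 2 measured copies differed in how they were distributed over the gradient. AT3G09200 read higher in NP than in PL in both genotypes. WT NP arrays read 27608.9 and 37632.1 and WT PL arrays 9743.2 and 10012.4, while eif3h NP arrays read 61271.2 and 66422.8 and eif3h PL arrays 14568.9 and 18360.8. The 4 groups did not overlap, with WT PL lowest and eif3h NP highest. Its translation state, the log2 ratio of PL over NP, was -1.71 in WT (SE 0.196, adjusted p = 0.000728) and -1.96 in eif3h (SE 0.196, adjusted p = 0.000295), a PL signal 3.26-fold and 3.90-fold below the NP signal. These and all other adjusted p-values are from limma, over 11373 tested probe sets.

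Both fractions of AT3G09200 were higher in eif3h, by 0.73 on the log2 scale in PL (adjusted p = 0.041, or 0.0602 with no variance trend) and by 0.98 in NP (adjusted p = 0.0124). Its translation state therefore moved little between the genotypes, by -0.26 (SE 0.278, adjusted p = 0.692). Without the WT gradient of replicate 1 or that of replicate 2 neither difference passed (adjusted p between 0.0584 and 0.252), nor did either with no replicate block (0.137 in PL and 0.0536 in NP) or no filter on signal (0.223 and 0.0846).

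The other P0 copy, AT3G11250, read 506 and 252.2 in WT NP and 755.1 and 568.1 in WT PL, against 1009.1 and 986.5 in eif3h NP and 1289.3 and 877 in eif3h PL. Within WT the PL arrays lay above the NP arrays, whereas in eif3h the fractions overlapped. Its translation state was 0.88 in WT (SE 0.248, adjusted p = 0.0273) and 0.09 in eif3h (adjusted p = 0.789), and the change of -0.78 did not pass (SE 0.351, adjusted p = 0.349). The NP signal rose 2.79-fold in eif3h, a log2 difference of 1.48 (SE 0.248, adjusted p = 0.00622), and the PL difference was 0.70 (adjusted p = 0.0944). The WT translation state did not pass without WT replicate 2, at 0.58 (adjusted p = 0.23), or with no replicate block (adjusted p = 0.138). With gradients left out in turn the NP rise ran from 1.13 to 1.84, and it did not pass with no replicate block (adjusted p = 0.0586).

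**Figure D1:**
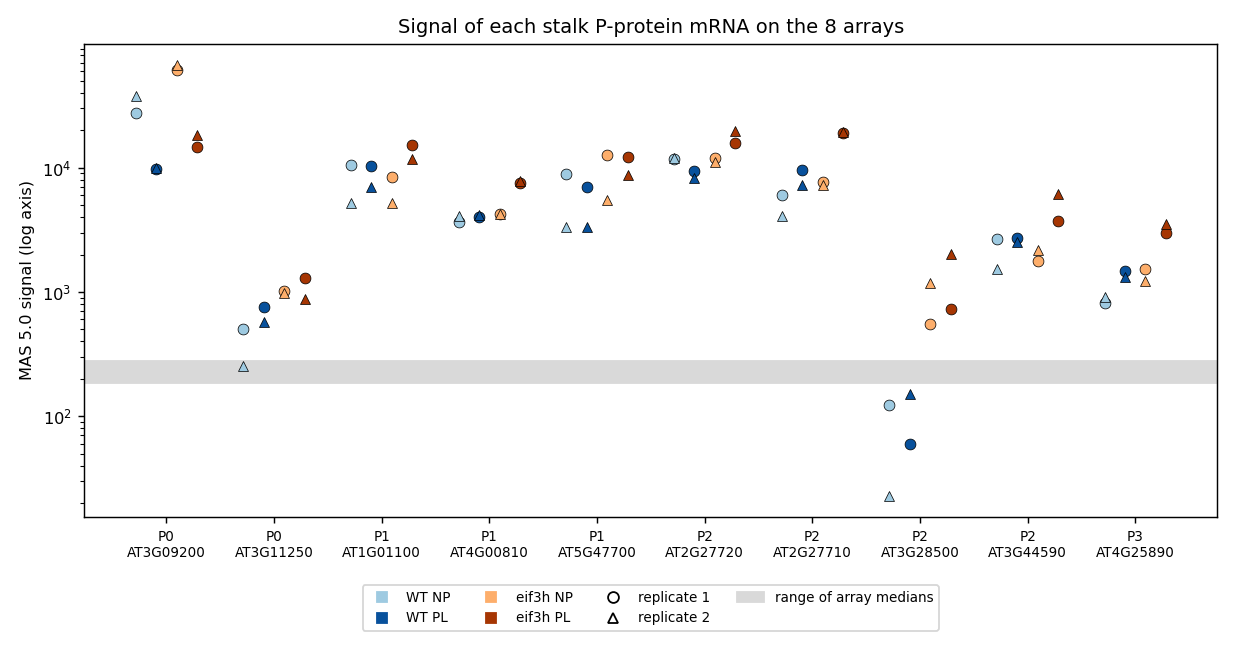
MAS 5.0 signal of each P-protein probe set (log axis) on the 8 arrays, coloured by genotype and fraction, with circles for replicate 1 and triangles for replicate 2. The grey band spans the array medians (185.75 to 277). AT3G28500 is the member whose 4 WT points all lie below the band and whose 4 eif3h points all lie above it. Heights of different probe sets are not comparable.

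The P1 proteins bind P0 as partners of P2. All 3 P1 mRNAs had fitted translation states near 0 in WT and above 0 in eif3h. In eif3h 2 of the 3 passed the test, against 16.9% of tested probe sets upward. The share was 30.8% among probe sets with a mean signal at least that of the lowest of the 9 members other than AT3G28500. The third P1 mRNA, AT5G47700, turned to -0.065 in eif3h after quantile normalization. AT1G01100 read 10461.1 and 5200.6 in WT NP and 10263.1 and 7012.3 in WT PL, then 8338.2 and 5234.9 in eif3h NP and 15333.5 and 11810 in eif3h PL. Its fractions overlapped in WT, and in the mutant both PL arrays lay above both NP arrays. The translation state was 0.20 in WT (adjusted p = 0.493) and 1.03 in eif3h (SE 0.207, adjusted p = 0.00485), a call lost with no replicate block (adjusted p = 0.0895).

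AT4G00810 had the closest replicates of the P1 copies. Its signals were 3682.7 and 4111.5 in WT NP, 4022.9 and 4176 in WT PL, 4202 and 4215.9 in eif3h NP, and 7471.4 and 7804.3 in eif3h PL. The first 3 groups lay within a narrow range and the eif3h PL arrays stood above them. Its translation state was 0.08 in WT (adjusted p = 0.782) and 0.86 in eif3h (SE 0.178, adjusted p = 0.00546), and the PL signal was 1.86-fold higher in eif3h (log2 0.90, SE 0.178, adjusted p = 0.0139). After quantile normalization the eif3h translation state was 0.37 and did not pass (adjusted p = 0.128). The PL rise missed the threshold without WT replicate 1 (adjusted p = 0.0686), without WT replicate 2 (adjusted p = 0.0506) and with no replicate block (adjusted p = 0.058).

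AT5G47700 varied mainly between replicates, replicate 1 being higher in every group. WT NP read 8814.6 and 3330.1, WT PL 6970.6 and 3304.8, eif3h NP 12612.7 and 5466.1, and eif3h PL 12179.5 and 8688.2. Within a replicate both eif3h fractions were above the corresponding WT fractions. The PL difference was 1.10 on the log2 scale (SE 0.238, adjusted p = 0.0193, lost without WT replicate 2 at an adjusted p of 0.0777 and with no replicate block at 0.327) and the NP difference 0.62 (adjusted p = 0.104). Its translation states of -0.18 in WT and 0.31 in eif3h did not pass (adjusted p = 0.613 and 0.323), the latter passing at 0.82 with arrays centred on their medians (adjusted p = 0.0287).

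Of the P2 copies other than AT3G28500, all 3 had translation states past the test in eif3h. Upward calls there made up 16.9% of tested probe sets, or 30.8% at the higher signal described for P1. AT2G27720 showed the largest shift between genotypes among the members. AT2G27720 and AT2G27710 are neighbouring genes on chromosome 2. AT2G27720 read 11839.3 and 11880.9 in WT NP and 9403 and 8254.4 in WT PL, and 12017.5 and 11140.3 in eif3h NP and 15866.6 and 19828.8 in eif3h PL. The NP arrays of the genotypes lay together, while PL was below NP in WT and above NP in eif3h. Its translation state was -0.43 in WT (SE 0.199, adjusted p = 0.133) and 0.62 in eif3h (SE 0.199, adjusted p = 0.036).

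The change of AT2G27720 was 1.045 (SE 0.282), or 0.73 in replicate 1 and 1.36 in replicate 2, and did not pass (adjusted p = 0.202). It was the only member over 2-fold in the mean of both replicates with similar replicates, the study's own rule, which 1.92% of tested probe sets met upward and 3.22% downward. Its PL signal was 2.01-fold higher in eif3h (log2 1.01, adjusted p = 0.0137), and the NP difference was -0.04 (adjusted p = 0.916). Leaving out WT replicate 1 or 2 ended the call of the PL rise (adjusted p = 0.051 and 0.101), and leaving out WT replicate 2 or eif3h replicate 2 ended that of the eif3h translation state (adjusted p = 0.0523 and 0.171), as did dropping the replicate block (0.0696), the filter (0.102) or the variance trend (0.0522) and quantile normalization (0.0982). Without eif3h replicate 1 the change was 1.26, where a single eif3h gradient remained.

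AT2G27710 read 6079.9 and 4121.3 in WT NP, 9540.7 and 7211.5 in WT PL, 7608.7 and 7196.3 in eif3h NP, and 19074.7 and 19266.6 in eif3h PL. In both genotypes PL lay above NP, and each eif3h fraction lay above its WT counterpart. The translation state was 0.73 in WT (SE 0.208, adjusted p = 0.0277) and 1.37 in eif3h (SE 0.208, adjusted p = 0.00136). The PL signal rose 2.31-fold in eif3h (log2 1.21, SE 0.208, adjusted p = 0.0084). With gradients left out in turn this rise ran from 0.96 to 1.46, and its adjusted p was 0.0501 with no replicate block. The WT translation state did not pass without WT replicate 1 (adjusted p = 0.0807) or 2 (adjusted p = 0.166), with no replicate block (0.0913) or with no filter (0.0709).

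AT3G44590 read 2677.5 and 1543 in WT NP and 2707.1 and 2526.5 in WT PL, against 1767.5 and 2167.1 in eif3h NP and 3750.6 and 6093.9 in eif3h PL. The eif3h PL arrays were above all others. The translation state of 1.29 in eif3h passed (SE 0.312, adjusted p = 0.0111), while that of 0.36 in WT (adjusted p = 0.41) and the PL difference of 0.87 (adjusted p = 0.0973) did not. With gradients left out in turn the PL difference ran from 0.30 to 1.44, where each fit left a single gradient in 1 genotype.

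The single P3 member, AT4G25890, read 812.2 and 903.1 in WT NP, 1486.6 and 1325.3 in WT PL, 1531.6 and 1223.5 in eif3h NP, and 3000 and 3499.2 in eif3h PL. WT NP was lowest and eif3h PL highest, and WT PL and eif3h NP overlapped between them. Its translation state was 0.71 in WT (SE 0.208, adjusted p = 0.0304) and 1.24 in eif3h (adjusted p = 0.00214), and its PL signal rose 2.31-fold in eif3h (log2 1.21, SE 0.208, adjusted p = 0.00853). The NP difference was 0.68 (adjusted p = 0.0537), and the change of translation state was 0.53 (SE 0.294, adjusted p = 0.433). With gradients left out in turn the eif3h translation state ran from 0.97 to 1.52 and the PL rise from 1.09 to 1.32. The WT translation state did not pass without WT replicate 1 or 2, or with no replicate block (adjusted p = 0.0709).

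In the polysomal fraction the mRNAs of all 9 members other than AT3G28500 were higher in eif3h than in WT, and on 9 of 9 both eif3h arrays exceeded both WT arrays. Upward separation of this kind was seen for 24.4% of tested probe sets. The rise passed the test for 6 of the 9 (AT3G09200, AT4G00810, AT5G47700, AT2G27720, AT2G27710 and AT4G25890), against 5.92% of tested probe sets upward and 9.74% upward among the 4508 probe sets with a mean signal at least that of the lowest of the 9. That lowest member was AT3G11250, at the 80.2 percentile of mean signal, and the others lay at 91.8 to 99.8. The 4508 therefore do not match the signal of the others. Fitted differences ran from 0.67 to 1.21 with a median of 0.90, where the median over all tested probe sets was -0.06. The study described raised polysome loading of ribosomal protein mRNAs on these same samples. That measure, PL over NP, includes the PL signal, so that this direction is not independent evidence.

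Without the replicate block the PL rise passed for 2 of the 9, AT2G27720 and AT4G25890, against 0.976% of tested probe sets upward. It passed for 4 without WT replicate 1 (2.83% of tested probe sets upward), 2 without WT replicate 2 (4.23%), 9 without eif3h replicate 1 (9.36%) and 6 without eif3h replicate 2 (10.9%). Each of these left-out fits rests on 1 gradient in that genotype, assumed to vary like the others, so that a call in it adds no support.

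In the non-polysomal fraction fewer members passed. Both P0 copies rose in eif3h, and no other member of the 9 passed, which makes 2 of 9 against 8.45% of tested probe sets upward and 8.58% of the 4508 of higher signal. The median difference was 1.23 over the P0 copies, 0.11 over the P1 copies, -0.04 over the remaining P2 copies and 0.68 for the P3 member, beside 0.10 over all tested probe sets. After quantile normalization AT5G47700 (0.80, adjusted p = 0.0283), AT2G27710 (0.70, adjusted p = 0.0317) and AT4G25890 (0.76, adjusted p = 0.0385) also passed, so that the calls were then not confined to P0. Of the 9 members, 5 had eif3h NP arrays above WT NP arrays without overlap, against 29.2% of tested probe sets. Neither P0 call passed without the replicate block, and the difference between the classes was not tested. The count was 1 without WT replicate 1 (4.42% of tested probe sets upward) or WT replicate 2 (5.72%) and 4 without eif3h replicate 1 (11.9%) or eif3h replicate 2 (14.7%).

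**Figure D2:**
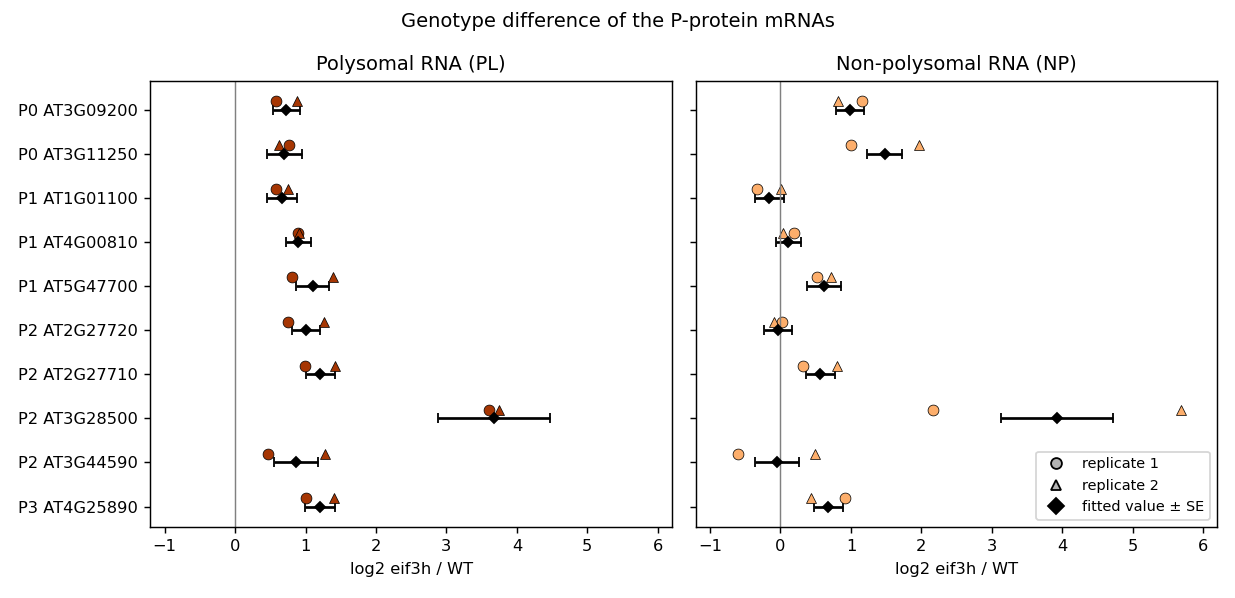
Log2 ratio of eif3h over WT for each P-protein mRNA in PL (left) and NP (right), with circles and triangles for replicates 1 and 2 and diamonds for the fitted value with its SE. In PL the 9 members other than AT3G28500 lie between 0.67 and 1.21 and AT3G28500 at 3.67, and in NP the replicates of AT3G28500 lie at 2.16 and 5.68.

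In WT seedlings the members did not share a translation state. AT3G11250, AT2G27710 and AT4G25890 had more signal in PL and AT3G09200 had more in NP, 4 of the 9 members past the test against 30.1% of tested probe sets in either direction. The median over the 9 was 0.20, with 0.005 over all tested probe sets. In eif3h, 6 of the 9 were past the test upward and AT3G09200 downward, against 16.9% and 22.2% of tested probe sets (30.8% upward among the 4508 of higher signal), and the median was 0.86 beside -0.16 for all. Without the replicate block the counts were 1 in WT and 5 in eif3h, against 15.2% and 23.4% of tested probe sets in either direction. The WT count was 2 without WT replicate 1 (18.1% of tested probe sets), 1 without WT replicate 2 (13.8%) and 5 without eif3h replicate 1 (47.1%) or 2 (46.9%).

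The design asks whether the translation state changed with the mutation. For 7 of the 9 members, all but the P0 copies, the fitted change was positive, while 40.8% of tested probe sets had a positive change, or 56.1% of the 4508 of higher signal. Those 7 lay above the lower limit of the 4508, so that their signal is not matched. With arrays centred on their medians the change of AT3G09200 was positive too, at 0.11, as the median of all probe sets moved from -0.12 to 0.24. None passed the limma test, and 0.0528% of all tested probe sets did. An unadjusted p below 0.05 was reached by 3 of the 9 (AT1G01100, AT4G00810 and AT2G27720), against 14.5% of tested probe sets. The median change was 0.65 over the 9 and -0.12 over all tested probe sets. The study reported raised polysome loading of ribosomal protein mRNAs on these same samples, so that the direction is not independent evidence. The change combines 4 groups, and its SE ran from 0.251 to 0.442 over the 9, against 0.178 to 0.312 for a translation state in 1 genotype. This fit did not pair the PL and NP arrays of 1 gradient. With the gradient as a block the SE ran from 0.236 to 0.315 over the 9. Adjusted p-values of the change then ran from 0.0724 (AT2G27720) to 0.665 (AT3G09200), against 0.202 to 0.692 in the main fit. None of the 9 passed with that block, against 1.64% of tested probe sets. In 6 of the 9, PL/NP of both eif3h gradients exceeded that of both WT gradients, against 19.8% of tested probe sets, and AT3G11250 was separated the other way, against 32.2%. None passed without the replicate block either. With gradients left out in turn, the median change relative to all tested probe sets ran from 0.696 to 0.939.

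**Figure D3:**
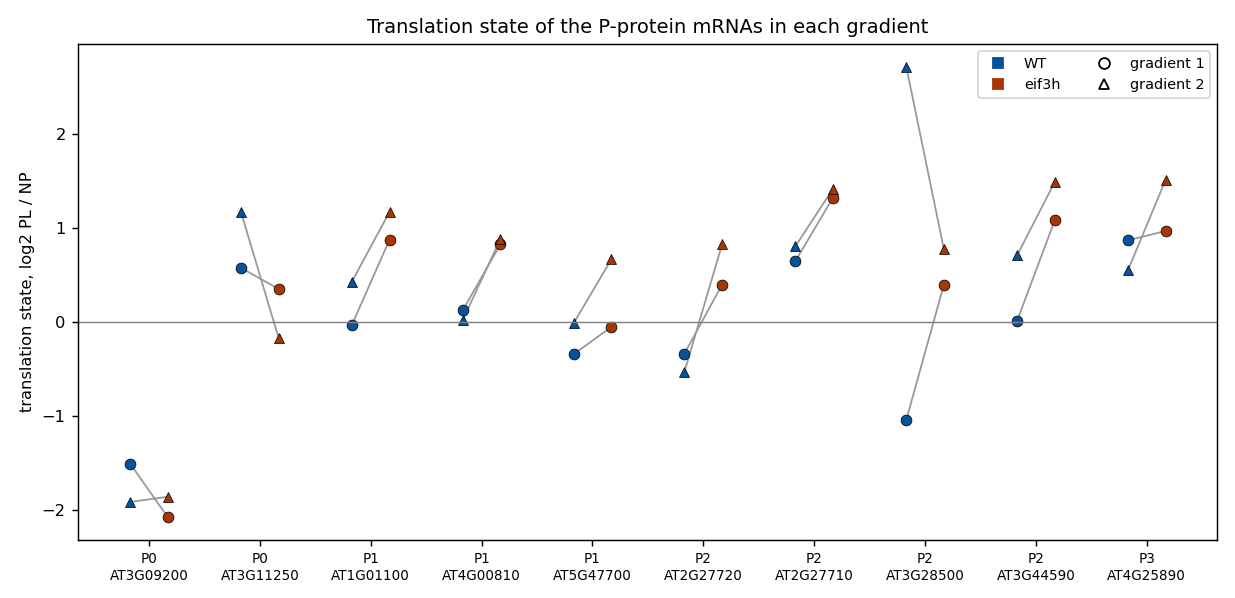
Translation state (log2 PL/NP) of each P-protein mRNA in the WT and eif3h gradients, with a line joining gradients of the same replicate number. The lines of the P1 copies, of AT3G44590, of the pair AT2G27720 and AT2G27710 and of AT4G25890 rise from WT to eif3h in both replicates. That of AT4G25890 rises by 0.098 in replicate 1 and 0.963 in replicate 2. The 2 WT gradients of AT3G28500 lie at -1.04 and 2.72.

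The probe set of AT3G28500 had a low signal in WT relative to its arrays. It read 123.7 and 23 in WT NP and 60.2 and 151.4 in WT PL, and 553.7 and 1182 in eif3h NP and 731.2 and 2021.4 in eif3h PL. All 4 WT signals were below the median of their array (194.4 to 234.35), 1 was below 44.7, the 20th percentile of all signals, and all 4 eif3h signals were above every WT signal. The geometric means were 53.3 and 95.5 in WT NP and PL and 809 and 1216 in eif3h NP and PL. The probe set passed the filter on low signal only through its eif3h arrays, and a log2 ratio against so low a WT signal is poorly fixed in size.

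As a description, the difference between eif3h and WT was 12.7-fold in PL (log2 3.67), the 10th highest of 11373 probe sets, and 15.2-fold in NP (log2 3.92), the 8th highest. In PL the replicates gave 3.60 and 3.74, and in NP 2.16 and 5.68. With gradients left out in turn the PL difference ran from 2.66 to 4.68. Against the median of the 9 other members the excess was 2.83 and 2.48 in the replicates of PL and 1.84 and 5.19 in those of NP. The largest difference of any other member in the same array pairs was 1.01 and 1.42 in PL and 1.15 and 1.97 in NP. That AT3G28500 lay above them restates how it was chosen.

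The WT signals of AT3G28500 were too low to fix its distribution over the gradient. The translation state was -1.04 in WT replicate 1 and 2.72 in WT replicate 2, of opposite sign, and no test is given. In eif3h the gradients gave 0.40 and 0.77. The change between genotypes was 1.44 in one replicate and -1.95 in the other.

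Over the 8 arrays, log2 signals of AT3G28500 correlated with those of the other members at r = 0.215 to 0.817 (median 0.597, highest for AT3G11250), and the 36 pairs of other members at -0.529 to 0.957 (median 0.614). The highest pair was AT2G27710 with AT4G25890, and every negative pair involved AT3G09200. The arrays of 1 gradient and of 1 day share deviations, so that these values describe the arrays and are given with no test. Among 5971 other tested probe sets with a single gene, the patterns most like that of AT3G28500 were AT1G80870 (r = 0.969), AT1G20770 (r = 0.967), AT1G09870 (r = 0.954), AT3G52950 (r = 0.945) and AT1G76820 (r = 0.942). The differences between genotypes of those 5 were smaller than that of AT3G28500, from 0.37 to 1.82 on the log2 scale in PL, with AT1G76820 highest.

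The P-protein genes outside the list were 4, and they held a copy that moved the opposite way. AT2G40010, a further P0 gene, read 946.5 and 1322.5 in WT NP and 92.4 and 130.2 in WT PL, but 27.4 and 41.7 in eif3h NP and 23.1 and 26.4 in eif3h PL. All 4 eif3h signals were below 44.7, and in WT the signal lay mostly in NP. The probe set was below the filter, at the 34.2 percentile of mean signal, since only its WT NP arrays were high. In the fit of all 22746 probe sets it was 33.1-fold lower in eif3h NP (log2 -5.05, SE 0.495, adjusted p = 0.00161, the 13th lowest value) and 4.44-fold lower in eif3h PL (log2 -2.15, adjusted p = 0.0448). The size of such a fall is poorly fixed, because the eif3h signals are near the bottom of the array.

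In WT, AT2G40010 had a translation state of -3.35 in that fit (SE 0.495, adjusted p = 0.00393), the same sign as AT3G09200. In eif3h NP, then, P0 copies AT3G09200 and AT3G11250 were higher than in WT, and AT2G40010 was lower. Whether the probe sets of these copies also bind the mRNA of the others was not examined. The accession of the array seedlings not being named, the mutation and any difference of accession between the genotypes cannot be told apart. This holds for every genotype difference given here, those of AT2G40010 and AT3G28500 included.

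**Figure D4:**
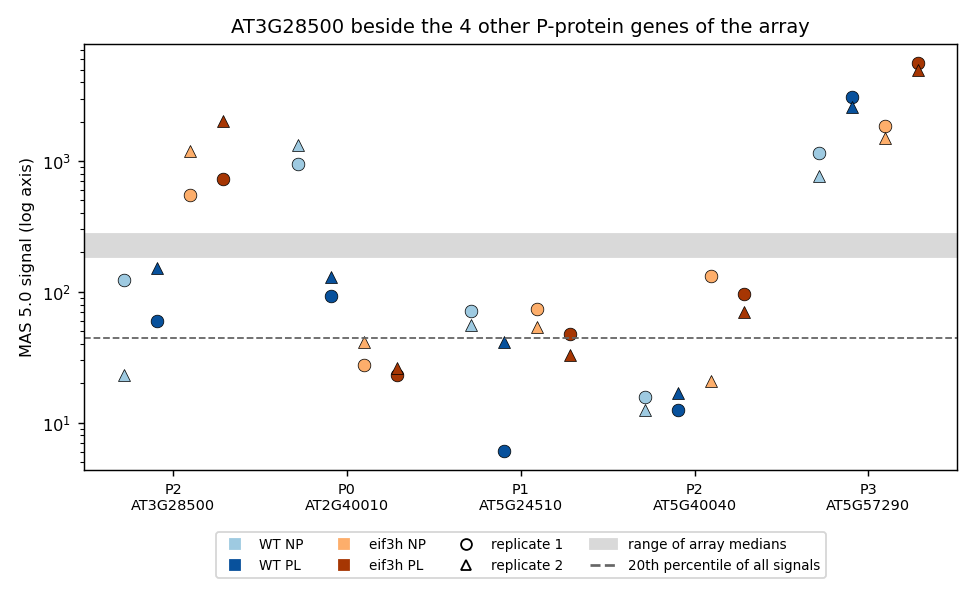
MAS 5.0 signal (log axis) of AT3G28500 and of the 4 P-protein genes outside the list on the 8 arrays, by group and replicate. The grey band spans the array medians and the dashed line is the 20th percentile of all signals (44.7). AT3G28500 is high on the eif3h arrays, and AT2G40010 is high on the WT NP arrays, at 946.5 and 1322.5.

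A second P3 gene, AT5G57290, was the only one of these 4 to pass the filter. It read 1155.5 and 765.8 in WT NP, 3066.8 and 2583.7 in WT PL, 1854.4 and 1488.1 in eif3h NP, and 5570.6 and 4961.7 in eif3h PL. PL was above NP in both genotypes, with a translation state of 1.58 in WT (adjusted p = 0.000895) and 1.66 in eif3h (adjusted p = 0.000454), and the change was 0.08 (SE 0.272, adjusted p = 0.917). Both fractions rose in eif3h, PL by 0.90 (adjusted p = 0.0188) and NP by 0.82 (adjusted p = 0.0224), although the PL rise was lost without WT replicate 1 (adjusted p = 0.0601) and the NP rise without WT replicate 2 (adjusted p = 0.114) and with median centring (adjusted p = 0.0819), and both with no replicate block (0.116 and 0.12). The remaining genes had little signal, AT5G24510 (P1 type) at 6.1 to 73.5 and AT5G40040 (P2) at 12.5 to 131.1. The eif3h signals of AT5G40040 (131.1 and 20.7 in NP, 96.3 and 69.8 in PL) all lay above its WT signals of 12.5 to 17, the direction of AT3G28500. In the fit of all 22746 probe sets its differences were 2.49 in PL (adjusted p = 0.193) and 1.89 in NP (adjusted p = 0.275), and neither passed. Signals so near the bottom of the array leave their size poorly fixed.

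Genes for proteins linked to the stalk were taken as fixed lists, with classes assigned from general knowledge of the Arabidopsis loci. Protein uL11 forms the stalk base together with P0, and all 3 of its loci were measured. None changed its translation state past the test, the values being 0.74 for AT2G37190, 0.38 for AT5G60670 and -0.16 for AT3G53430. In PL the 3 differences between genotypes were 0.68, 0.47 and 0.65 and none passed (AT2G37190 reached 0.0495 with median centring), and in NP AT3G53430 rose by 0.81 (adjusted p = 0.0334, or 0.266 without WT replicate 2, 0.205 with no replicate block, 0.0833 with no filter and 0.129 with median centring).

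The list of 12 elongation factor loci covered eEF2, eEF1A and eEF1B. Of these, 2 had a probe set of their own, both for eEF1B, which exchanges the nucleotide on eEF1A. No eEF2 or eEF1A locus, whose proteins hydrolyse GTP, was measured. AT5G19510 had more signal in NP than in PL in WT (translation state -1.36, adjusted p = 0.00651, or 0.0547 without WT replicate 2), and its PL signal rose by 1.02 in eif3h (adjusted p = 0.0391), a call lost without WT replicate 1 (adjusted p = 0.229) or 2 (adjusted p = 0.0514) and with no replicate block (0.104), no filter (0.108) or no variance trend (0.0563). AT5G12110 rose by 0.88 in NP (adjusted p = 0.0249, or 0.15 without WT replicate 2, 0.11 with no replicate block and 0.0751 with median centring). Neither changed its translation state past the test, at 0.90 and -0.32.

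AT1G25260 corresponds to the yeast assembly factor Mrt4, a P0-like protein that occupies the P0 site on the maturing subunit. It read 3552.6 and 4272.3 in WT NP, 1634.3 and 1490.6 in WT PL, 3203.1 and 2980.5 in eif3h NP, and 2344.2 and 2824.8 in eif3h PL. The fractions were farther apart in WT than in eif3h, with translation states of -1.32 (adjusted p = 0.00205) and -0.26 (adjusted p = 0.313), and the change of 1.06 did not pass (adjusted p = 0.202). Its PL signal rose by 0.72 in eif3h (adjusted p = 0.0434), which was lost without WT replicate 1 (adjusted p = 0.09) or 2 (adjusted p = 0.16) and with no replicate block (0.125), no filter (0.0582), no variance trend (0.0653) or quantile normalization (0.0738). The change was 1.24 when eif3h replicate 1 was left out and 0.87 when eif3h replicate 2 was left out, each leaving 1 eif3h gradient. The 4 plastid counterparts of the stalk proteins had no probe set with a single gene here.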

How the data were processed

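The authors corrected background with MAS 5.0 and scaled each ATH1 array to a common trimmed mean. The deposited values are linear signal intensities, 1 per probe set. Detection calls were not used here. Names came from the platform annotation matched to RefSeq (TAIR10.1, names only): 13436 had 1 gene, 503 several, 77 a name absent from RefSeq and 8729 none. TIF3H1 was named through the study's supplementary list. Signals were taken as log2 with no offset, 64 control probe sets were left out, and the 50% with the highest mean were kept (11373). All 8 arrays were fitted in R 4.3.3 with limma 3.58.1 (4 groups, replicate number as a block, eBayes with a variance trend), two-sided, with Benjamini-Hochberg adjustment and a threshold of 0.05. SE denotes the standard error of the fitted log2 value. The fit was tested on simulated data with errors drawn independently for each array. That test does not cover deviations shared by the PL and NP arrays of 1 gradient.

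The replicates were prepared on different days according to the study's methods, and on 8 of 8 arrays the replicate number equals the scan day and the scanner. Deviations of same-numbered arrays correlated at r = 0.326 to 0.680, so the numbers pair the samples. There were 2 gradients per genotype, and this number limits the precision. Beyond the replicate number, the fit treated the PL and NP arrays of 1 gradient as independent. Their deviations between replicates correlated at 0.68 in WT and 0.52 in eif3h, against 0.326 to 0.402 between arrays of different genotypes. These values still include the replicate effect that the block removes. The p-values of the differences between genotypes therefore do not measure the spread between gradients alone, and those of the change do not use the pairing within a gradient. Members and lists were chosen with earlier results of these data known. All 10 members were named, with the other P-protein genes, the mutated gene, up to 4 genes per fixed list with the smallest p for the change, and the 5 patterns most like AT3G28500. Alternatives changed the block, filter, offset, scaling and variance trend, or left out a gradient. No sequences are given.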

Additional observations from a re-analysis of the deposited data

Results flagged for a closer look

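For AT2G27720 the translation state was negative in both WT gradients (mean -0.43) and positive in both eif3h gradients (mean 0.62), a difference of 1.045 whose limma test did not pass (adjusted p = 0.202). The uL11 gene AT2G37190 showed the same arrangement, -0.46 in WT and 0.28 in eif3h, a difference of 0.74 (adjusted p = 0.311). Of all tested probe sets, 9.2% had translation states of opposite sign between the genotypes in this way. For AT1G25260, the difference between eif3h and WT was negative in both NP replicates (mean -0.33) and positive in both PL replicates (mean 0.72), and the difference of 1.055 did not pass (adjusted p = 0.202). This arrangement was found for 12.7% of tested probe sets. No group had enough samples for a search for single outlying arrays.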

How the results depend on the processing

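Without the replicate block, members past the test fell from 4 to 1 for the translation state in WT (15.2% of tested probe sets in either direction). They fell from 6 to 2 for the difference between genotypes in PL (0.976% upward) and from 2 to 0 in NP (1.53% upward). In NP the count was 1 with no filter on signal (3.24% upward) and 5 after quantile normalization (8.19% upward). Relative to all tested probe sets, the members' median translation state in eif3h moved from 1.015 to 1.283 with no filter and 0.339 after quantile normalization, the median change from 0.768 to 0.877 and 0.411, and the median NP difference from 0.467 to 0.67 after quantile normalization. The causes were not tested. With gradients left out in turn, the counts ran from 1 to 5 and 6 to 8 for the translation states in WT and eif3h, 0 to 4 for the change, 2 to 9 in PL and 1 to 4 in NP. The corresponding medians ran from 0.012 to 0.432, 0.959 to 1.055, 0.696 to 0.939, 0.78 to 1.265 and 0.211 to 0.514, and the excess of AT3G28500 over the others from 1.94 to 3.46 in PL and 1.77 to 5.19 in NP. With the gradient as a block the change of AT2G27720 had an adjusted p of 0.0724.

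Values with no call that turned sign were the following. Median centring, which moved the median of all probe sets from -0.16 to 0.36 for the translation state in eif3h, from 0.005 to 0.15 in WT, from -0.12 to 0.24 for the change and from 0.10 to -0.15 for the NP difference, gave changes of 0.11 for AT3G09200, 0.11 for AT3G28500, 0.20 for AT3G53430 and 0.042 for AT5G12110, NP differences of -0.14 for AT4G00810, -0.13 for AT5G19510 and -0.17 for AT5G60670, and eif3h translation states of 0.25 for AT1G25260, 0.29 for AT5G12110, 0.054 for AT5G19510 and 0.43 for AT5G60670. It also moved the calls of all probe sets, upward and downward, from 1925 and 2529 to 3895 and 968 for the translation state in eif3h, from 1709 and 1714 to 2240 and 1266 in WT, from 2 and 4 to 35 and 5 for the change, from 673 and 865 to 898 and 599 in PL and from 961 and 984 to 412 and 1721 in NP. Quantile normalization gave NP differences of 0.022 for AT1G01100, 0.14 for AT2G27720, 0.10 for AT2G37190 and 0.13 for AT3G44590, eif3h translation states of -0.14 for AT2G37190 and -0.065 for AT5G47700, a WT translation state of -0.042 for AT4G00810 and a change of -0.20 for AT5G57290. With gradients left out in turn, NP differences ran from -0.40 to 0.083 for AT1G01100, -0.086 to 0.015 for AT2G27720, -0.37 to 0.25 for AT2G37190, -0.70 to 0.59 for AT3G44590, -0.40 to 0.65 for AT5G19510 and -0.12 to 0.29 for AT5G60670. WT translation states ran from -0.028 to 0.43 for AT1G01100, -1.04 to 2.72 for AT3G28500 and -0.17 to 0.37 for AT5G12110, and those in eif3h from -0.17 to 0.35 for AT3G11250, -0.05 to 0.67 for AT5G47700 and -0.25 to 0.077 for AT5G60670. Changes ran from -2.13 to 1.63 for AT3G28500, -0.39 to 0.072 for AT3G53430 and -0.092 to 0.25 for AT5G57290. An offset of 16 turned no sign. Of all probe sets 0.0528% were called for the change, against 1.64% with the gradient as a block, 7.78% without eif3h replicate 1, 6.57% without eif3h replicate 2 and 0 with no replicate block, no filter or no variance trend. Low WT signals limit AT3G28500, and low eif3h signals limit AT2G40010.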
